A study of Mus musculus with 6 samples.

Results

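The genes examined here encode subunits of Polycomb repressive complex 2 (PRC2), the enzyme that places methyl groups on lysine 27 of histone H3 (H3K27). They are the catalytic subunits Ezh1 and Ezh2, the core subunits Eed, Suz12 and Rbbp4, and the accessory subunits Jarid2, Aebp2, Mtf2, Phf19 and Phf1. They were taken by symbol, with 1 transcript per symbol, and make up 10 of the 24063 gene symbols in the count files. Their mRNA was measured by RNA sequencing in LSK cells, the lineage-negative, Sca-1-positive, c-Kit-positive fraction of mouse bone marrow in which blood stem cells and early progenitors are found. There were 3 Asxl2-/- libraries and 3 control (wild type) libraries, numbered 1 to 3 in each group. All came from C57BL/6 mice injected with pIpC, and the sample titles put Mx1-cre in both groups. In the Asxl2-/- group this Cre deletes a floxed part of Asxl2. pIpC, a synthetic double-stranded RNA, switches on the interferon-responsive Mx1 promoter, so deletion is not restricted to LSK cells. Age and sex were not given for these libraries, nor whether a library held cells of 1 mouse or of several, and p-values measure the spread between these libraries.

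PRC2 keeps developmental and lineage genes silent by methylating H3K27. Its catalytic subunit is either Ezh2, which is typical of dividing cells, or Ezh1, which is less active and persists in cells that divide little. Both need Eed, which binds trimethylated H3K27 (H3K27me3), and Suz12, the scaffold of the complex. The accessory subunits define alternative assemblies, one with a Polycomb-like protein (Mtf2, Phf19 or Phf1) and one with Jarid2 and Aebp2, and they help to bring the enzyme to chromatin. Blood stem cells depend on PRC2 for self-renewal and differentiation. Because the study asked how loss of Asxl2, a Polycomb-associated protein, bears on histone marks, the question for these genes was whether the mRNA of the writing complex itself differed between Asxl2-/- and control cells.

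The deposited counts came as gene-count files (1 count per transcript) for Asxl2-/- replicates 1 and 3 and control replicate 2, and as exon-count files (1 count per exon) for Asxl2-/- replicate 2 and control replicates 1 and 3. Totals over all genes ran from 25528540 to 29136012 in the gene-count files and from 53147729 to 55032075 in the exon-count files. A spliced read can be counted in several exons, so the CPM of single genes are set side by side within a kind of file, and the kind of file entered each fit. Ranges of summed levels cover both kinds unless split. In exon 11 of Asxl2, the floxed exon, lay 0.583% of the Asxl2 exon counts of Asxl2-/- replicate 2 (28 of 4804, 95% Wilson interval 0.404 to 0.841), against 10.3% and 11.99% in control replicates 1 and 3, while gene-count files cannot show this exon. Counts of the X-inactivation transcript Xist were 49540 to 66689 in the Asxl2-/- libraries and 590 to 3194 in the controls, and 4 Y-linked genes had 0 to 2 counts in the former and 1026 to 4807 in the latter. Genotype and sex therefore cannot be told apart in these libraries. All 10 PRC2 genes lie on autosomes, and this limit holds for them as well.

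Promoter sequence is shown for the catalytic gene Ezh2, the scaffold gene Suz12 and the accessory gene Phf19, because these hold a word of the kind bound by E2F factors, which drive many genes in dividing cells. The word searched was TTTNNCGC with each N limited to C or G, on both strands of the RefSeq promoters (GRCm38.p6, 250 bases before to 50 after each start). Capitals mark the word in windows of 30 bases, read on the strand of the gene.
Ezh2, chr6:47595009-47595038, minus strand: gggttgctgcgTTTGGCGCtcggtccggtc
Suz12, chr11:79992876-79992905, plus strand: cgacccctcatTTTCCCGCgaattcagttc
Phf19, chr2:34914166-34914195, minus strand: gtcaataattcGCGGGAAAacgcgaaaaag
In Ezh2 the word begins at base +4, within the first exon. In Suz12 it begins at base -219, and in Phf19 it is read on the opposite strand and begins at base -208. The word stood in 3 of the 14 promoters listed for the 10 PRC2 genes, against 2.26% of the 32851 promoters searched. Counted by gene it was 3 of 10, against 2.6% of 27025 genes. These are matches of letters in this window and not sites of binding.

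All 10 PRC2 genes were transcribed in every library, at levels that spanned more than an order of magnitude. Levels were compared between genes as CPM per kilobase of transcript, where CPM is counts scaled to a common library size. In the gene-count files the histone chaperone Rbbp4, which other chromatin complexes also use, was highest at 97.4 to 107 CPM per kilobase. Ezh2 followed at 77.5 to 88.3, Suz12 at 57.0 to 67.5 and Eed at 42.9 to 46.9. Among the accessory genes Mtf2 led at 31.5 to 39.9 CPM per kilobase, ahead of Aebp2 (19.5 to 20.9) and Jarid2 (12.9 to 15.2). Ezh1 had 7.97 to 10.6, Phf19 5.64 to 7.88 and Phf1 5.18 to 6.85, and in this kind of file only these last 2 neighbours overlapped. In the exon-count files the order was the same in outline, with Rbbp4 (122 to 135) overlapping Ezh2 (102 to 123), Eed (56.9 to 68.3) overlapping Suz12 (56.4 to 67.2), and Phf1 (5.51 to 7.77) overlapping Phf19 (4.92 to 8.30). Core genes thus lay above accessory genes in both kinds of file, apart from the catalytic gene Ezh1.

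**Figure D1:**
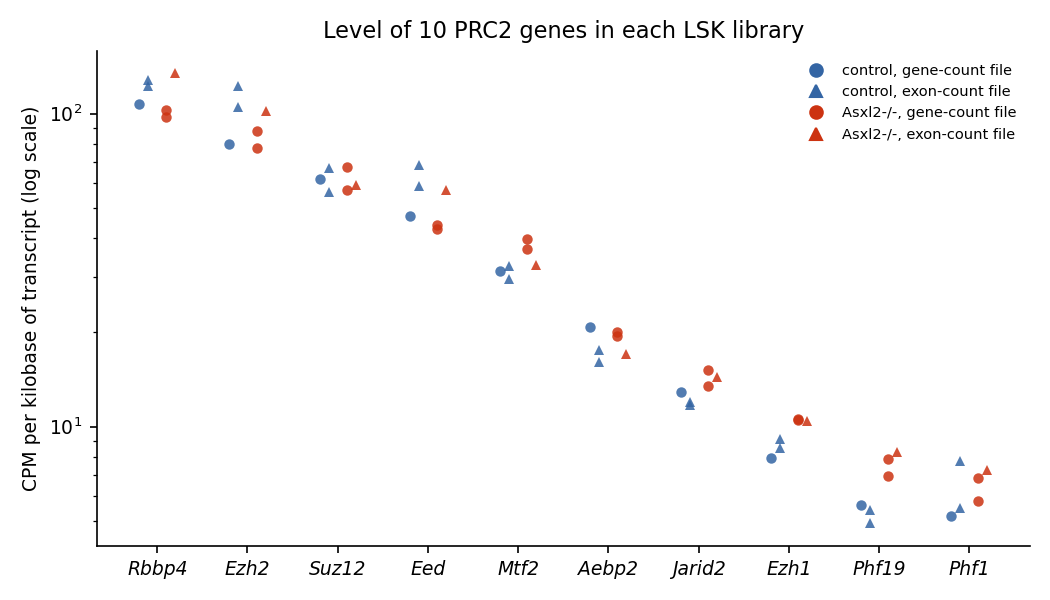
Level of each PRC2 gene in each library, as CPM per kilobase of transcript on a log axis, with gene-count and exon-count files marked by shape and groups by colour. Rbbp4 and Ezh2 lie highest and Phf19 and Phf1 lowest in both kinds of file, and for Phf19 the Asxl2-/- points lie above the control points of the same kind.

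No PRC2 gene passed the threshold of adjusted p under 0.05 in edgeR's quasi-likelihood test, in which 2.34% of the 14145 genes tested did (288 genes, or 2.04%, higher and 43, or 0.304%, lower in Asxl2-/- cells). At an unadjusted edgeR p under 0.05 there were 3 of 10, Phf19, Ezh1 and Jarid2, all with higher levels in Asxl2-/- cells, against 15.0% of all genes in that direction and 27.7% in either. limma-voom called 0 of the 10, where it called 3.04% of all genes, and DESeq2 called 1, Phf19, where it called 17.1% of 13596 genes. The median log2 fold change over the 10 genes was 0.09, beside 0.00 over all genes tested, and the median absolute value was 0.16, beside 0.24. After removal of the kind of file, the groups did not overlap for 5 of 10 genes (4 with higher and 1 with lower values in Asxl2-/- cells), against 44.4% of all genes (23.6% with higher and 20.8% with lower values). The summed CPM of the 10 genes was 1488 and 1510.0 in Asxl2-/- replicates 1 and 3 against 1473 in control replicate 2. From exon counts it was 1678 in Asxl2-/- replicate 2, between control replicates 1 (1588) and 3 (1711).

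**Figure D2:**
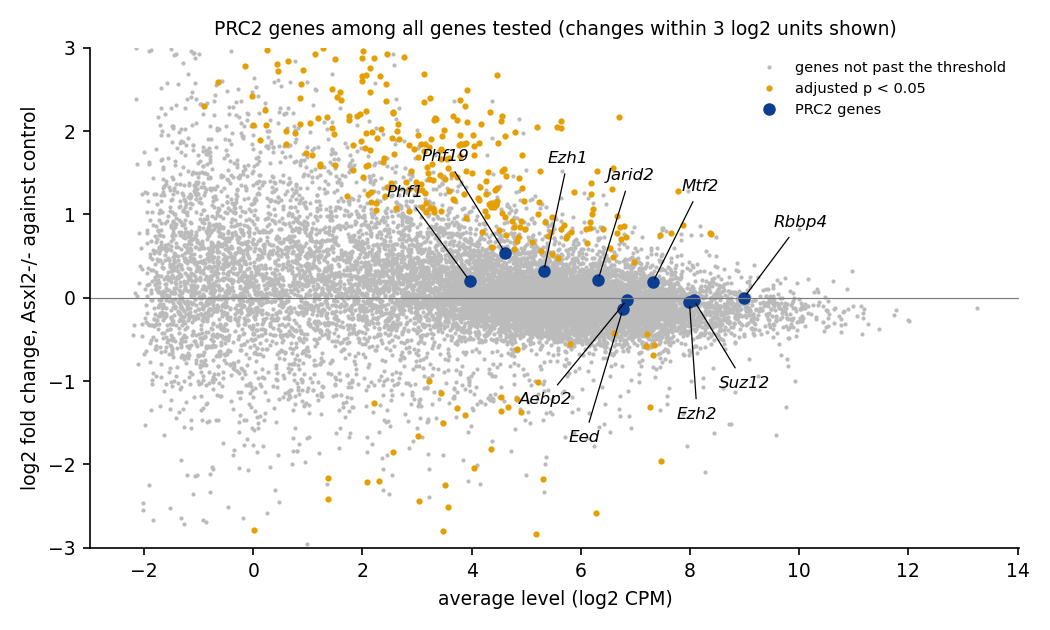
Log2 fold change of Asxl2-/- against control for all genes tested, against the average level in log2 CPM, with genes past adjusted p of 0.05 in orange and the 10 PRC2 genes in blue. The PRC2 genes lie between -0.14 and 0.54, within the cloud of genes not past the threshold.

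Of the catalytic subunits, Ezh1 had higher and Ezh2 similar values in Asxl2-/- cells, neither past the threshold. Ezh1 (NM_007970, chr11:101191115-101226450 on mm10, 21 exons) was at 44.5 and 44.2 CPM in Asxl2-/- replicates 1 and 3 against 33.4 in control replicate 2, in the gene-count files. In the exon-count files it was at 43.7 CPM in Asxl2-/- replicate 2 against 38.2 and 35.8 in control replicates 1 and 3. Each Asxl2-/- library thus exceeded each control of its kind. With the kind of file removed, Ezh1 averaged 5.48 ± 0.049 log2 CPM in Asxl2-/- and 5.15 ± 0.067 in control cells (SD, n = 3 each). The log2 fold change was 0.32 (SE 0.092, 95% interval 0.10 to 0.55), a fold of 1.25 (1.07 to 1.46), with an edgeR adjusted p of 0.102. Taken alone, the gene-count files gave 0.41 and the exon-count files 0.24. By size of p Ezh1 stood at rank 1673 of 14145 genes. A fit that added a replicate block to file kind gave an edgeR adjusted p of 0.0113. That fit had 1 residual degree of freedom and called 5179 of 14145 genes. The edgeR adjusted p was 0.454 with the block in place of file kind and 0.245 with no term for file kind.

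Ezh2 (NM_007971, chr6:47530274-47595030, 20 exons) had 205 and 234 CPM in Asxl2-/- replicates 1 and 3 and 212 in control replicate 2. Exon counts gave 269.8 CPM in Asxl2-/- replicate 2 and 279 and 326 in control replicates 1 and 3. The control lay between the Asxl2-/- libraries in the first kind of file, and the Asxl2-/- library lay below both controls in the second. Group means were 7.94 ± 0.112 and 7.999 ± 0.127 log2 CPM in Asxl2-/- and control cells (SD, n = 3 each). The log2 fold change was -0.06 (SE 0.114, edgeR adjusted p = 0.786), and its 95% interval of -0.33 to 0.22 corresponds to folds of 0.794 to 1.17. A rise or fall of Ezh2 within that interval was compatible with these libraries.

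The balance of Ezh1 to Ezh2 was taken within each library as a ratio of counts per kilobase. It was 0.137 and 0.119 in Asxl2-/- replicates 1 and 3 and 0.0997 in control replicate 2. In the exon-count files it was 0.103 (Asxl2-/- replicate 2) against 0.0868 and 0.0696 (control replicates 1 and 3). Within each kind of file the Asxl2-/- libraries had the higher ratio, and Ezh1 was the minor form in every library. The log2 ratio differed by 0.38 on average (0.36 and 0.40 in the 2 kinds of file). A two-sided exact permutation test with labels exchanged within each kind of file gave p = 0.222 (adjusted 0.333 over the 2 ratios tested), where the 9 arrangements allow no p below 0.111.

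**Figure D3:**
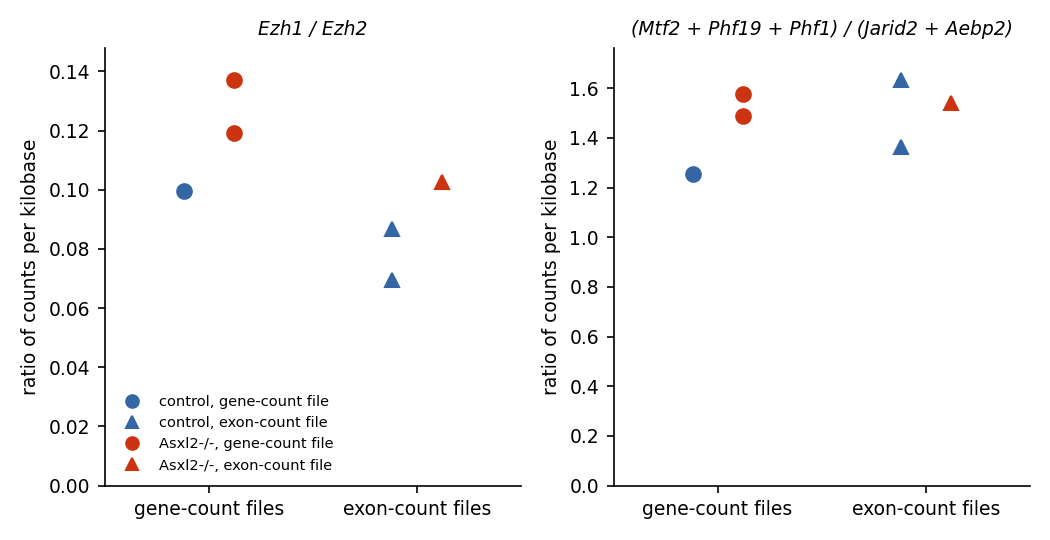
Ratio of Ezh1 to Ezh2 (left) and of the summed Polycomb-like genes Mtf2, Phf19 and Phf1 to the summed Jarid2 and Aebp2 (right), as counts per kilobase, for each library by kind of file. On the left the Asxl2-/- libraries lie above the controls within each kind of file, and on the right control replicate 1 (1.63) lies above all others.

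The core subunits Suz12 and Rbbp4 had nearly equal values in both groups, and Eed had slightly lower values in Asxl2-/- cells. Eed (NM_021876, chr7:89954654-89980976, 12 exons) was at 90.8 and 88.3 CPM in Asxl2-/- replicates 1 and 3 against 96.7 in control replicate 2, and at 117 CPM in Asxl2-/- replicate 2 against 121 and 141 in control replicates 1 and 3. It was the one PRC2 gene whose Asxl2-/- libraries all lay below the controls of their kind. Its log2 fold change was -0.14 (SE 0.090, 95% interval -0.36 to 0.08, edgeR adjusted p = 0.362).

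Suz12 (NM_199196, chr11:79993106-80034123, 16 exons) was at 249 and 295 CPM in Asxl2-/- replicates 1 and 3 and 270.2 in control replicate 2, and at 258 CPM in Asxl2-/- replicate 2 and 247 and 294 in control replicates 1 and 3. The groups overlapped in both kinds of file, with a log2 fold change of -0.03 (SE 0.116, 95% interval -0.31 to 0.25, edgeR adjusted p = 0.902). Rbbp4 (NM_009030, chr4:129307100-129335370, 12 exons) was at 452.5 and 429 CPM in Asxl2-/- replicates 1 and 3 against 473 in control replicate 2. By exon counts it was at 593 in Asxl2-/- replicate 2 against 539 and 564 in control replicates 1 and 3. Rbbp4 was thus lower than the control in one kind of file (log2 difference -0.10) and higher in the other (0.11), and the joint log2 fold change was 0.00 (SE 0.090, 95% interval -0.22 to 0.22, edgeR adjusted p = 0.989). Exons of Rbbp4 overlap those of Sync, a gene with at most 110 counts in a library, and the libraries were not stranded.

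Among the accessory subunits, Phf19, which recognises H3K36 methylation and recruits PRC2, had the largest difference of the 10 genes. Phf19 (NM_028716, chr2:34893755-34913976, 15 exons) was at 29.5 and 26.1 CPM in Asxl2-/- replicates 1 and 3 against 21.1 in control replicate 2. In the exon-count files it was at 31.1 CPM in Asxl2-/- replicate 2 against 20.3 and 18.4 in control replicates 1 and 3. Each Asxl2-/- library thus lay above the controls of its kind. Group means with the kind of file removed were 4.85 ± 0.121 log2 CPM in Asxl2-/- and 4.32 ± 0.109 in control cells (SD, n = 3 each). The log2 fold change was 0.54 (SE 0.120, 95% interval 0.25 to 0.83), a fold of 1.46 (1.19 to 1.78). The edgeR adjusted p was 0.0712, at rank 753 of all genes tested, whereas DESeq2 gave a log2 fold change of 0.50 and an adjusted p of 0.0132. Gene-count files alone gave a difference of 0.39, and exon-count files 0.68. With the replicate block beside file kind, the edgeR adjusted p was 0.000121, in a fit with 1 residual degree of freedom that called 5179 of 14145 genes.

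The other Polycomb-like genes differed less. Mtf2 (NM_001253877, chr5:108065674-108109219, 16 exons) was at 188 and 174 CPM in Asxl2-/- replicates 1 and 3 against 148 in control replicate 2, and at 155 CPM in Asxl2-/- replicate 2 against 154 and 139 in control replicates 1 and 3. Its Asxl2-/- libraries were above the controls of their kind, clearly in the gene-count files and by about 1 CPM over control replicate 1 in the exon-count files. The log2 fold change was 0.18 (SE 0.096, 95% interval -0.05 to 0.42, edgeR adjusted p = 0.256). Phf1 (NM_009343, chr17:26933127-26937890, 15 exons) was at 16.6 and 14.1 CPM in Asxl2-/- replicates 1 and 3 against 12.6 in control replicate 2, and at 17.6 CPM in Asxl2-/- replicate 2 against 18.9 and 13.4 in control replicates 1 and 3. The groups overlapped in the exon-count files, and the log2 fold change of 0.21 had the widest interval of the 10 genes (SE 0.178, -0.23 to 0.64, edgeR adjusted p = 0.479).

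The subunits of the alternative assembly showed different values. Jarid2 (NM_001205043, chr13:44731271-44921643, 18 exons), a catalytically inactive Jumonji protein that binds PRC2, was at 91.02 and 80.7 CPM in Asxl2-/- replicates 1 and 3 against 77.3 in control replicate 2. Exon counts gave 86.2 CPM in Asxl2-/- replicate 2 against 72.2 and 70.4 in control replicates 1 and 3. Asxl2-/- values were above the control values in both kinds of file, with a log2 fold change of 0.21 (SE 0.088, 95% interval 0.00 to 0.43, edgeR adjusted p = 0.180). Aebp2 (NM_001005605, chr6:140623689-140655481, 8 exons), a zinc-finger subunit that stabilises the complex, was at 121 and 124 CPM in Asxl2-/- replicates 1 and 3 against 129 in control replicate 2, and at 106 CPM in Asxl2-/- replicate 2 against 99.5 and 109 in control replicates 1 and 3. Its groups overlapped in the exon-count files, and the log2 fold change was -0.03 (SE 0.081, 95% interval -0.23 to 0.17, edgeR adjusted p = 0.854).

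The ratio of the summed Polycomb-like genes to summed Jarid2 and Aebp2 was 1.58 and 1.49 in Asxl2-/- replicates 1 and 3 and 1.25 in control replicate 2. It was 1.54 in Asxl2-/- replicate 2 and 1.63 and 1.36 in control replicates 1 and 3. The Asxl2-/- library lay between the controls in the exon-count files, and the mean log2 difference was 0.17 (0.29 from gene counts and 0.05 from exon counts). The exact permutation test within the kind of file gave p = 0.333 (adjusted 0.333). Control replicate 2 was the only control among the gene-count files, so leaving it out gave back the exon-count value of 0.05.

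The exon-count files also show where along each transcript the counts fell, for 1 Asxl2-/- library and 2 controls, so no test between genotypes was possible. All 15 exons of Phf19 had a higher CPM in Asxl2-/- replicate 2 than in both controls, as did 16 of 18 exons of Jarid2, 10 of 12 of Rbbp4, 9 of 16 of Mtf2, 11 of 21 of Ezh1 and 6 of 15 of Phf1. Below both controls lay 17 of 20 exons of Ezh2 and 7 of 12 of Eed, while Suz12 and Aebp2 had at most 3 exons on either side. Over the 150 of 153 exons with at least 100 counts in the 3 libraries together, 70 lay above and 31 below both controls, against 33.2% and 40.9% of 107340 such exons of all genes. Exons of 1 gene share its level and are not independent. None of these 150 exons had a share of its gene's counts whose 95% Wilson interval lay apart from those of both controls. Over all genes 0.416% of exons did, so 0 of 150 does not set the PRC2 genes apart. The intervals of both controls lay apart from each other for 2 exons (1 of Eed and 1 of Rbbp4), beside 1.53% over all genes. Intervals cover counting error only, since reads without molecular identifiers are not independent molecules.

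**Figure D4:**
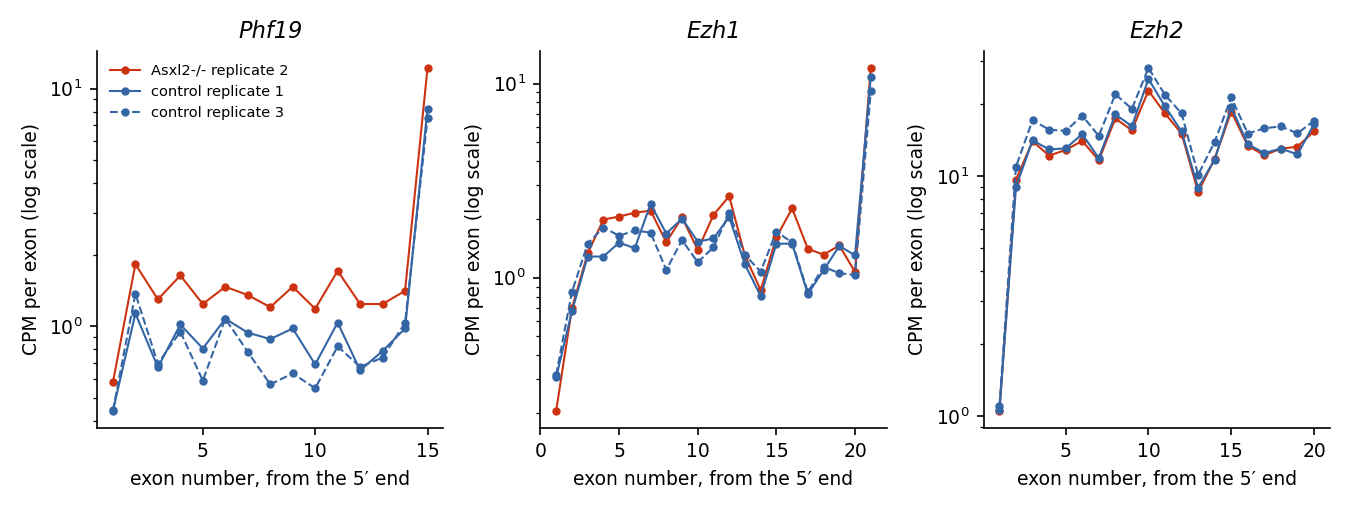
CPM of each exon of Phf19, Ezh1 and Ezh2, in order from the 5′ end and on a log axis, in the 3 libraries with exon counts. The line of Asxl2-/- replicate 2 runs above both controls at all 15 exons of Phf19 and below both at 17 of 20 exons of Ezh2.

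RefSeq lists several transcripts for Ezh2, Suz12, Jarid2, Mtf2 and Aebp2, and the exons that distinguish them were counted. The alternative first exon of Mtf2 (NM_001253878) took 10.7% of first-exon counts in Asxl2-/- replicate 2 (40 of 375, Wilson 7.93 to 14.2), 13.5% in control replicate 1 (10.6 to 16.9) and 11.9% in control replicate 3 (8.82 to 15.8). For Jarid2 the upstream first exon had 20, 17 and 35 counts in the same order, beside 275, 180 and 178 in the downstream one. The downstream exon includes 204 bases that the 2 transcripts with the upstream start also hold. Those bases had 199, 132 and 150 counts, so these counts give no share of first-exon use. For Mtf2 the interval of Asxl2-/- replicate 2 overlapped those of both controls, and the highest count of the upstream Jarid2 exon belonged to control replicate 3. The first exon particular to the Aebp2 transcript NM_178803 had 0, 0 and 1 counts beside 419, 437 and 442 in that of NM_001005605, and 3 counts would have been a share of 0.716%, 0.687% and 0.677%. Exon 4 of Suz12 (69 bases), absent from the shorter transcript, had 425, 384 and 365 counts, near those of exon 3 (451, 361 and 412) and exon 5 (462, 418 and 407). The first exon of NM_178803 thus had almost none of the Aebp2 first-exon counts in any of these libraries.

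Other partners of PRC2 gave 0 of 4 tested genes past the edgeR threshold and 0 by DESeq2 or limma-voom, with a median log2 fold change of 0.09. At an unadjusted edgeR p under 0.05 there was 1 of 4, near the 27.7% of all genes. It was E130012A19Rik (current symbol Epop), which joins the Polycomb-like assembly. It was at 21.5 and 16.8 CPM in Asxl2-/- replicates 1 and 3 against 14.7 in control replicate 2, and at 16.0 in Asxl2-/- replicate 2 against 10.04 and 8.25 in control replicates 1 and 3. Its Asxl2-/- libraries were above the controls of their kind, by 0.60 on the log2 scale (SE 0.176), with an edgeR adjusted p of 0.107. Rbbp7, the paralog of Rbbp4, had -0.09 (SE 0.091, edgeR adjusted p = 0.564), Lcor 0.14 and Lcorl 0.05. AU022751, the fifth gene listed, had no count in any library.

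Among enzymes that remove or oppose H3K27 methylation, 3 of 9 passed the edgeR threshold, 2 higher and 1 lower in Asxl2-/- cells. Of all genes tested 2.34% did, 2.04% higher and 0.304% lower. Kdm6a, an H3K27 demethylase on chromosome X, was at 110.3 and 111 CPM in Asxl2-/- replicates 1 and 3 against 58.0 in control replicate 2. By exon counts it was at 105.5 CPM in Asxl2-/- replicate 2 against 63.8 and 63.4 in control replicates 1 and 3. It rose by 0.83 on the log2 scale (SE 0.084), a fold of 1.78, with an edgeR adjusted p of 0.0178. Uty, its Y-linked counterpart, fell from 1702, 1026 and 1800 counts in control replicates 1, 2 and 3 to 0, 2 and 0 in Asxl2-/- replicates 1, 2 and 3 (edgeR adjusted p = 0.000417). Both genes are sex-linked, and for them, as for every gene here, genotype and sex cannot be told apart. Kdm6a was not past the threshold without Asxl2-/- replicate 1 (adjusted p = 0.0798), control replicate 2 (0.0553) or control replicate 3 (0.101). Its call was also lost with the replicate block in place of file kind.

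Whsc1 (Nsd2), a writer of H3K36 methylation, which hinders PRC2, was at 158 and 152 CPM in Asxl2-/- replicates 1 and 3 against 116 in control replicate 2, and at 132 in Asxl2-/- replicate 2 against 97.8 and 96.5 in control replicates 1 and 3. It rose by 0.43 on the log2 scale (SE 0.073), with an edgeR adjusted p of 0.0461. That call was lost without any of 5 single libraries, all but control replicate 1 (adjusted p = 0.104 to 0.181). It was also lost with no filter (0.0591), median-ratio scaling (0.0617), the longest exon (0.0717), the most counted transcript (0.0739), no file kind (0.104) and the replicate block in its place (0.249), and over all alternatives the log2 fold change ran from 0.38 to 0.53. The others had log2 fold changes of 0.43 for Ash1l, 0.30 for Crebbp, 0.19 for Setd2, 0.16 for Kdm6b, 0.03 for Nsd1 and -0.03 for Ep300, and the median over the 9 was 0.19.

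The Cbx genes encode readers of H3K27me3 in the partner complex PRC1. Their log2 fold changes were positive in 5 of 5, with a median of 0.51, but none passed the edgeR threshold. Over all genes tested 7084 of 14145 had a positive value. At an unadjusted edgeR p under 0.05 there were 2, Cbx6 at 0.56 (SE 0.142, edgeR adjusted p = 0.0867) and Cbx2 at 0.58 (SE 0.235, edgeR adjusted p = 0.177). DESeq2 called 1, Cbx6, and limma-voom 0. Beside these, 15.0% of all genes had such a p with higher values (27.7% in either direction), and DESeq2 called 17.1%. With 5 genes these counts do not set the Cbx list apart. Cbx7, with 0.51, had an edgeR adjusted p of 0.184.

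**Figure D5:**
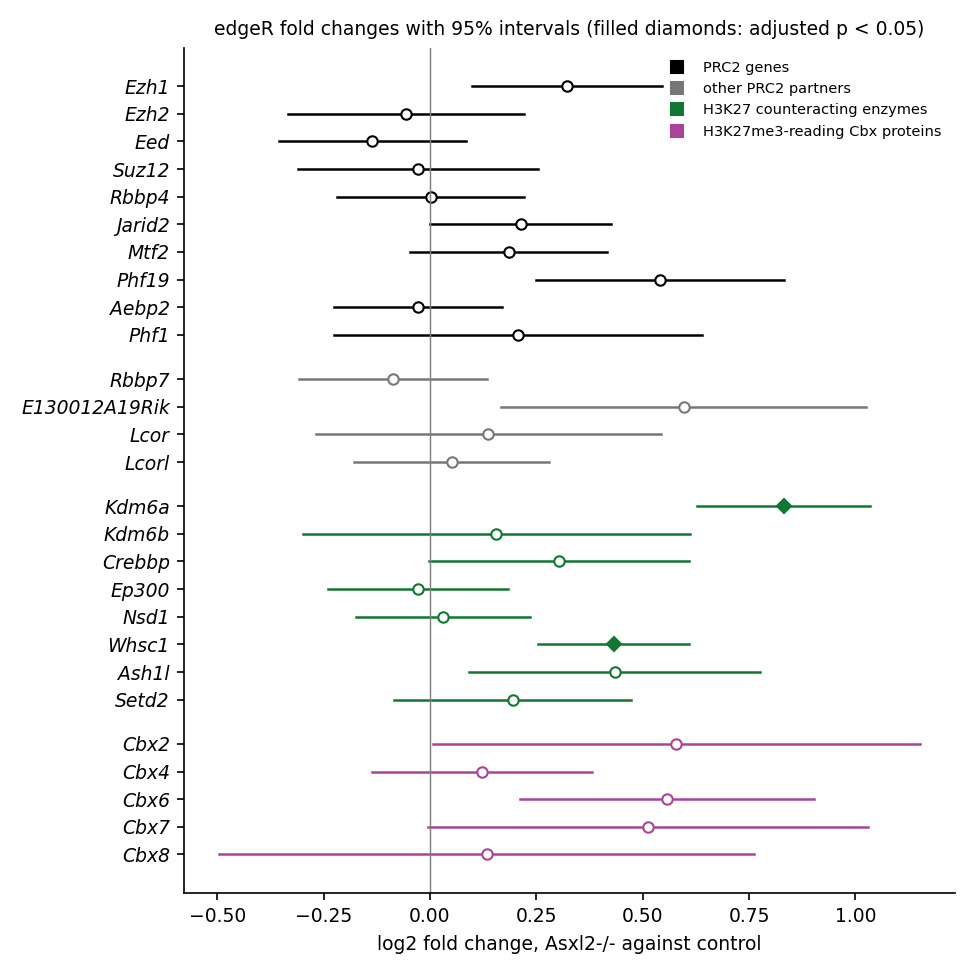
Log2 fold changes of Asxl2-/- against control with 95% intervals for the 10 PRC2 genes, other PRC2 partners, enzymes that oppose H3K27 methylation and Cbx readers, with filled diamonds for adjusted p under 0.05. Only Kdm6a (0.83) and Whsc1 (0.43) among the genes drawn are filled, and Uty, whose Asxl2-/- libraries held 0 to 2 counts, is left out.

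Developmental genes known as PRC2 targets in stem cells were nearly silent in both groups, and PRC2 binding in LSK cells was not examined. Of 14 such genes 1 passed the filter on low counts, Cdkn2a, at -0.18 on the log2 scale (SE 0.953), with an edgeR adjusted p of 0.923, and 0 were called by edgeR, DESeq2 or limma-voom or had an unadjusted p under 0.05. Their summed level was 0.973 to 1.202 CPM in controls and 0.674 to 1.88 CPM in Asxl2-/- libraries, and 2 of the 14 had no count in any library.

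Since several PRC2 core genes are known to be higher in dividing cells, 20 proliferation genes were set beside them. Their summed level was 6950.0 and 7006 CPM in Asxl2-/- replicates 1 and 3 against 7368 in control replicate 2, and 8128 in Asxl2-/- replicate 2 against 7740.0 and 8718 in control replicates 1 and 3. None of the 20 passed the edgeR threshold, 4 had an unadjusted p under 0.05, all with lower values in Asxl2-/- cells (12.6% of all genes in that direction), and DESeq2 called 4 and limma-voom 0. All 4 DESeq2 calls were lower in Asxl2-/- cells, a direction called for 1148 of 13596 genes (17.1% in either direction). With the kind of file removed, the groups did not overlap for 8 of 20 with lower and 1 with higher values. The shares over all genes were 20.8% and 23.6%. The mitotic kinase Plk1 had a log2 fold change of -0.37 with an SE of 0.103 (edgeR adjusted p = 0.0999), the mitotic activator Cdc20 had -0.32 (SE 0.102, edgeR adjusted p = 0.119) and the nucleotide synthesis enzyme Rrm2 had -0.35 (SE 0.129, edgeR adjusted p = 0.153). Mki67, the widely used proliferation marker, had a positive value of 0.18 (edgeR adjusted p = 0.266). The median over the list was -0.10, with 5 of 20 above 0. Whether proliferation had a part in the values of Ezh2 and Eed was not tested.

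The patterns most like those of the catalytic genes were looked up as Pearson correlations of log2 CPM over the 6 libraries with the kind of file removed. Closest to Ezh1 were Timp2 (r = 0.9997), Selp (r = 0.9995) and Gatsl2 (r = 0.9993), but 14.5% of the 14145 genes had r above 0.9 with it. Closest to Ezh2 were March3 (r = 0.9991), Fam109b (r = 0.9979) and Dsn1 (r = 0.9952), with 2.38% of genes above 0.9. The points share their libraries and the removal of the kind of file, and 6 points give high values among many genes.

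Markers of the cells themselves differed between the groups. All 7 LSK markers were detected, and 1 of them rose in Asxl2-/- cells, Slamf1, which marks stem cells (log2 fold change 1.52, edgeR adjusted p = 0.0196). Ly6a, which encodes the Sca-1 used in the sort, was at 52.6 and 57.6 CPM in Asxl2-/- replicates 1 and 3 against 259.8 in control replicate 2, and at 69.1 in Asxl2-/- replicate 2 against 40.5 and 148 in control replicates 1 and 3. B-lymphoid markers rose for 8 of 10 (summed level 190 to 232 CPM in Asxl2-/- libraries against 45.5 to 67.0 in controls) and megakaryocyte markers for 5 of 8 (346 to 872 against 173 to 379.7). Over all genes 2.04% passed the edgeR threshold with higher values. Erythroid markers had a summed level of 546 to 925 CPM against 1192 to 1710, with 0 of 10 past the edgeR threshold. At an unadjusted edgeR p under 0.05 there were 5, all lower, and DESeq2 called 5 and limma-voom 1. Over all genes 27.7% had such a p (12.6% lower), and these tools called 17.1% and 3.04%. Log2 fold changes were -1.14 for Tfrc, -1.55 for Rhag and -1.07 for Klf1. They were nearer 0 for Hba-a1 (-0.29), Alas2 (-0.07), Hbb-b1 (0.05) and Slc4a1 (0.29). Over both kinds of file, summed myeloid markers (2558 to 6719 CPM against 2608 to 7973) and T and NK markers (112 to 166 against 125 to 156) overlapped. Within a kind, both sums were lower in Asxl2-/- cells in the gene-count files and higher in the exon-count files. Gene counts gave 4634 and 2558 CPM of myeloid markers in Asxl2-/- replicates 1 and 3 against 7973 in control replicate 2. Exon counts gave 6719 in Asxl2-/- replicate 2 against 2608 and 5000 in control replicates 1 and 3. Neither list had a gene past the edgeR threshold or called by limma-voom. Of 9 myeloid genes 2 had an unadjusted p under 0.05 and DESeq2 called 2, with higher values for S100a9 (log2 fold change 2.36, edgeR adjusted p = 0.0772) and Itgam (1.01, edgeR adjusted p = 0.0528). Of 6 T and NK genes tested 1 had an unadjusted p under 0.05 and DESeq2 called 1, with a lower value for Cd8a (-1.08, edgeR adjusted p = 0.0942). No list had a marker without counts in all libraries. In bulk samples fewer cells of a type and less RNA per cell cannot be told apart, and the part of these markers in the values of Phf19, Ezh1 and Jarid2 was not tested.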

How the data were processed

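The authors deposited raw counts of reads for each library, as whole numbers on mm10 with RefSeq transcripts, and replicates were not pooled. The submitters' processing notes name STAR, featureCounts and DESeq2, with no role or version. Per the study's methods, the unstranded libraries were made from poly(A) RNA, and its own tests ran in Cuffdiff on aligned reads, which were not used here. Gene-count files had 33068 lines and exon-count files 317548. For each symbol the transcript with the longest summed exon length was kept (4914 symbols had several), and exon counts were summed over it, which counts a spliced read once per exon touched.

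Counts were tested by quasi-likelihood (glmQLFit, glmQLFTest) in edgeR 4.0.16 under R 4.3.3 (TMM scaling, filterByExpr, design of file kind plus group, 3 residual degrees of freedom). Benjamini-Hochberg adjustment ran over all 14145 genes tested, with a threshold of 0.05. Standard errors are the log2 fold change over the square root of F, and intervals use 6.16 degrees of freedom. Log2 CPM used a prior count of 2, and file kind was removed with limma 3.58.1, which makes the SDs somewhat too small. Fold changes within 1 kind of file carry no test. Wilson intervals came from statsmodels 0.14.6 and the ratio tests were run in Python 3.11.15. Fits were tested on simulated data.

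The PRC2 genes and all gene lists were chosen with earlier results of these data known. Named were the 10 PRC2 genes, from each other list the genes past the threshold or otherwise up to 3 with the smallest p, exons not shared by all transcripts of a gene, and the 3 genes most like Ezh1 and Ezh2. Other genes of the short lists, Ly6a, Mki67, Hba-a1, Alas2, Hbb-b1, Slc4a1 and the genes of the promoter words were named after their values were seen. Alternatives in the tool were limma-voom and DESeq2 1.42.0. Alternatives in scaling were library size only and median ratios, and in the filter a minimum of 10 counts per library or none. Further ones were fits with no term for file kind, a block for replicate number, the most counted transcript, the longest exon, genes outside X and Y, each kind of file alone and each library left out. The values of Kdm6a, Whsc1 and Uty under them were added after seeing the data.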

Additional observations from a re-analysis of the deposited data

How the results depend on the processing

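The PRC2 genes past the threshold numbered 0 in edgeR and in all fits but 2: 1 with DESeq2 (Phf19) and 2 with the replicate block and file kind (Ezh1 and Phf19, edgeR adjusted p = 0.0113 and 0.000121). Leaving out each library gave 0 to 0. Without control replicate 2 or Asxl2-/- replicate 2, 1 kind of file held a single group, so only the other kind informed the difference. Over 18 alternatives the log2 fold change ran from 0.40 to 0.68 for Phf19, 0.24 to 0.42 for Ezh1, 0.15 to 0.31 for Jarid2, 0.08 to 0.29 for Mtf2, 0.04 to 0.34 for Phf1 and -0.28 to -0.04 for Eed, with no change of sign. The other 4 changed sign around 0. With library size only, which moved the median of all genes to 0.10, Ezh2 was at 0.0445, Suz12 at 0.0723 and Aebp2 at 0.0710. Aebp2 was at 0.0533 without file kind and 0.0589 with the block in its place. Rbbp4 was at -0.0455 with DESeq2, -0.0457 with median-ratio scaling, -0.00509 with no filter, -0.0955 without file kind, -0.107 with the block in its place and -0.0186 with the longest exon. With 1 library left out the ranges were -0.158 to 0.0526 (Ezh2), -0.117 to 0.0334 (Suz12), -0.101 to 0.109 (Rbbp4) and -0.0803 to 0.0278 (Aebp2). The cause was not tested.

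The labels give both groups the same replicate numbers without saying that a number marks a pair. Deviations of same-numbered libraries correlated at 0.294, -0.0077 and -0.0028 as deposited. With file kind removed they correlated at 0.635, 1 and 0.388, of which the value for replicate 2 is 1 by construction of the removal and the others are partly set by it. Whether the numbers pair the libraries is thus not settled, and the fit with the block and file kind leaves 1 residual degree of freedom. With the replicate block and file kind, 5179 of 14145 genes passed in all, and 1 other partner, 5 opposing enzymes, 3 Cbx genes and 4 proliferation genes. With the block and no file kind, 1 opposing enzyme, Uty, remained in the count. The mean difference of same-numbered libraries was 0.49 for the log2 ratio of Ezh1 to Ezh2 and 0.12 for the other ratio.

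Over all genes the 331 calls became 2329 with DESeq2 (1181 higher and 1148 lower), 161 with library size only, and 9 to 1312 with 1 library left out. In order the counts were 16, 659 and 96 without Asxl2-/- replicates 1, 2 and 3, and 1312, 124 and 9 without control replicates 1, 2 and 3. DESeq2 gave 1 Cbx gene and 4 proliferation genes. With 1 library left out the opposing enzymes numbered 1 to 3 and the proliferation genes 0 to 2, the latter 2 without control replicate 1. The log2 ratios ranged from 0.30 to 0.46 (Ezh1 to Ezh2) and from 0.05 to 0.29 under the same omissions. The values 0.05 and 0.29 are those of the exon-count and the gene-count files alone. With 3 libraries in each group and residual degrees of freedom of 3, SEs of the PRC2 genes were 0.081 to 0.178.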
